A study of Mus musculus with 19 samples.

Results

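The expression of Cxcl14 and of 9 other chemokine ligands and receptors was followed across kidney and liver of male mice with and without the histone variant macroH2A1.1. The 10 genes were taken by symbol from a table of 26506 genes, and all 10 were found in it. Cxcl14 was chosen by its measured knockout differences, which were opposite in kidney and liver, so these differences are described without a test. The ligands Cxcl12, Cxcl16, Cxcl1, Cxcl13, Cx3cl1 and Ccl2 and the receptors Cxcr4, Ackr3 and Ackr4 were set beside it as other tissue chemokine genes.

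RNA was taken from homogenized whole kidney and whole liver and selected by poly(A) before sequencing. The 4 groups were kidney of 5 macroH2A1.1 knockout (mH2A1.1_KO) mice, kidney of 5 wild-type mice, liver of 5 knockout mice and liver of 4 wild-type mice. The knockout was constitutive: alternative exon 6b of the macroH2A1 gene had been excised in zygotes with soluble Cre enzyme, and homozygous knockout and wild-type mice came from matings of heterozygotes. Mice of all groups had the C57BL/6J background after 10 or more backcross generations. The labels name a standard diet and a ketogenic diet without saying which mouse received which, and they give no age for a library. Knockout mice were numbered 13, 14, 15, 16 and 18 and wild-type mice 19, 20, 22, 23 and 24, and a liver of mouse 23 was not analysed here. Whether each library is its own animal is not stated in the labels; p-values cover only the spread among the libraries, which may be partly technical.

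Chemokines are small secreted proteins that attract or hold cells by binding G-protein-coupled receptors. Classical receptors such as Cxcr4 signal through inhibitory G proteins, whereas atypical receptors such as Ackr3 and Ackr4 bind chemokines, take them up and clear them without signalling through G proteins. In kidney and liver, chemokines are made by epithelium, stroma and resident immune cells as well as by recruited leukocytes.

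Library totals ranged from 25919138 to 35131720 counts in kidney and from 26084473 to 34806035 counts in liver. The labelled tissues carried their own markers: the sum of 6 kidney tubule markers reached 7868 to 9961 CPM (library-scaled counts) in kidney, and 3.20 CPM was its highest value in liver. The sum of 6 hepatocyte markers was 811 to 1052 CPM in kidney but 121400 to 159900 CPM in liver. All CPM values were scaled by TMM (trimmed mean of M-values, which corrects for differences in RNA composition) over all 19 libraries. H2afy, the gene targeted here (ENSMUSG00000015937; minus strand of chromosome 13 from 56073619 to 56136361), was in kidney at 36.0, 42.8, 43.1, 40.5 and 44.3 CPM in knockouts 13, 14, 15, 16 and 18. It was at 67.0, 66.3, 61.6, 66.6 and 48.8 CPM in wild-type kidneys 19, 20, 22, 23 and 24. In liver H2afy was at 60.6, 59.6, 72.7, 72.8 and 66.8 CPM in the same knockouts and at 121.2, 109.4, 103.1 and 73.8 CPM in wild types 19, 20, 22 and 24. The libraries labelled wild-type 24 were the wild types nearest to the knockouts in both tissues, and no group overlapped. Counts over the whole gene do not separate the deleted exon from the rest of H2afy, so they do not check the genotype label directly. The H2afy difference did not pass edgeR's quasi-likelihood test (log2 fold change -0.58, adjusted p = 0.135 in kidney; -0.61, adjusted p = 0.384 in liver), and it passed without the libraries labelled wild-type 24 (adjusted p = 0.00679 and 0.0469). With all libraries in, it also passed with DESeq2 (9.15e-05 and 0.0212), without a filter in kidney (0.039) and, in liver, when all libraries were fitted together (0.0416). Results that rest on these libraries are mostly given with and without them. An exception is the rank correlation (Spearman's rho) of kidney and liver, which was not computed without mouse 24.

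Promoters from RefSeq (build GRCm38.p6) were matched by symbol for 8 members; Cxcl16 and Ccl2 were not matched. The 250 bases before the start site are printed for Cxcl14, on which the results turn, and for Cxcl1, the member with the largest log2 SD in both liver groups (1.65 and 1.67). In the Cxcl14 sequence (minus strand, chr13:56296552-56296801) capitals mark CG dinucleotides, and in the Cxcl1 sequence (plus strand, chr5:90890995-90891244) capitals mark the match to the kappa-B motif.

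Cxcl14: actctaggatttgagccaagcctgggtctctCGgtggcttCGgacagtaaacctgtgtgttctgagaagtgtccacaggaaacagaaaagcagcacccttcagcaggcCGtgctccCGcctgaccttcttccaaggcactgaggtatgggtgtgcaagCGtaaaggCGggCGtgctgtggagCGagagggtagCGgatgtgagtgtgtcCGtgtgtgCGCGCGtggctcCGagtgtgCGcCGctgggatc

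Cxcl1: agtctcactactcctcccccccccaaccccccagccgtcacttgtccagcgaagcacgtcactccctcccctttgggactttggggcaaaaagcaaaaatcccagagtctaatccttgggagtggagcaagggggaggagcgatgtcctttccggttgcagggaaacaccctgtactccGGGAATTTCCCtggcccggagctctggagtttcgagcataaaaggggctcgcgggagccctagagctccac

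The Cxcl14 window held 16 CG dinucleotides, against a median of 6 over 32536 promoters of the same length, of which 76.3% held no more than 16. It held no match on either strand to TATAAA (present in 12.3% of all these promoters), GGGCGG (33.0%) or the kappa-B motif (3.92%). The Cxcl1 window held 2 overlapping kappa-B matches, on opposite strands at 71 and 70 bases before the start site, and no TATAAA or GGGCGG. Of the 8 matched members, kappa-B was matched in Cxcl1 only. GGGCGG was matched 5 times in Cxcl12, 3 times in Cxcr4 and 1 time each in Cx3cl1 and Ackr3, some of the Cxcl12 matches overlapping. TATAAA was matched in Cxcl13, Cx3cl1, Cxcr4, Ackr3 and Ackr4. These are matches of letters in a window and not measured binding.

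Cxcl14 (ENSMUSG00000021508, chromosome 13, 56288643 to 56296551, minus strand, GRCm38) encodes a homeostatic chemokine made mainly by epithelial and stromal cells. In kidney it was at 10.3, 18, 17.0, 16.7 and 17.0 CPM in knockouts 13, 14, 15, 16 and 18, and at 35.8, 36.0, 36.4, 46.4 and 20.3 CPM in wild types 19, 20, 22, 23 and 24. Every knockout kidney lay below every wild-type kidney, and the wild type nearest to the knockouts was the library labelled wild-type 24. In liver the knockouts were at 40.8, 21.04, 15.2, 31.8 and 24.6 CPM, and wild types 19, 20, 22 and 24 were at 4.55, 6.10, 5.40 and 27.4 CPM. The first 3 wild-type livers lay below every knockout liver, whereas the library labelled wild-type 24 lay within the knockout range. The kidney means were 15.8 ± 3.1 CPM (SD, n = 5) in knockouts and 35.0 ± 9.4 CPM (SD, n = 5) in wild types. The liver means were 26.7 ± 9.9 CPM (SD, n = 5) and 10.86 ± 11.03 CPM (SD, n = 4), the latter 5.35 ± 0.78 CPM (SD, n = 3) without the library labelled wild-type 24.

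**Figure D1:**
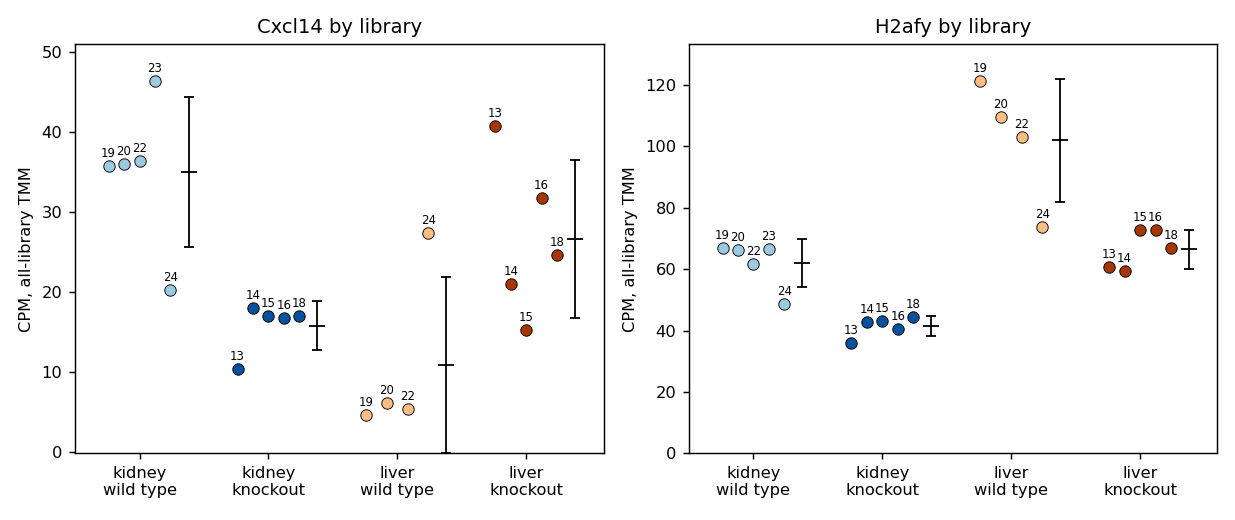
Levels of Cxcl14 (left) and of the targeted gene H2afy (right) in CPM on linear axes, 1 point per library with the mouse number above it; bars give the group mean and SD. Cxcl14 is lower in knockout than in wild-type kidneys and higher in knockout than in 3 of 4 wild-type livers, and the libraries labelled wild-type 24 lie nearest to the knockouts or among them.

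On the log2 scale the Cxcl14 knockout difference was -1.14 (SE 0.19) in kidney and 1.31 (SE 0.59) in liver. Without the library labelled wild-type 24 the liver difference was 2.33. Liver minus kidney, the knockout effect differed by 2.46 (SE 0.62). These are the values by which the gene was chosen, and no test is given for them. In the same fits, 0.00579% of 17269 genes were called in kidney (1 gene, lower in knockouts), 0% of 14591 in liver and 0% of 18549 for the difference between tissues. At an unadjusted p under 0.05 there were 509 genes in kidney, 609 in liver and 765 for the difference. Each count is less than a share of 0.05 of the genes tested, the share that this threshold passes where nothing differs. DESeq2 called 15, 42 and 8 genes after adjustment. Groups that did not overlap were found, in kidney, for 0.261% of genes with knockouts higher and 0.284% with knockouts lower. In liver the shares were 0.747% and 0.87%. Without mouse 24 they were 0.689% and 0.735% in kidney and 1.69% and 2.17% in liver.

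The order of Cxcl14 levels over the 4 groups ran from wild-type kidney through knockout liver and knockout kidney to wild-type liver. The ranges of wild-type kidney and knockout liver overlapped, as did those of knockout liver and knockout kidney, and those of knockout kidney and wild-type liver overlapped only through the library labelled wild-type 24. The order of the knockout groups turned with library totals in place of TMM, to 21.55 ± 4.43 CPM in knockout kidney (SD, n = 5) and 19.22 ± 7.38 CPM in knockout liver (SD, n = 5), again with overlapping ranges. The choice of Cxcl14 did not use the mean of both genotypes in each tissue. By that mean kidney exceeded liver by 0.48 on the log2 scale (SE 0.30), which did not pass edgeR's quasi-likelihood test (adjusted p = 0.159). Without mouse 24 the difference was 1.05 and passed (adjusted p = 9.39e-06). It also passed when libraries were scaled by their totals alone (1.38, adjusted p = 0.000529). Between these and the remaining alternatives its adjusted p ran from 9.39e-06 to 0.355. Relative to the median of all genes, the Cxcl14 difference was 0.30 with TMM and 0.31 with library totals.

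Cxcl14 and H2afy lie on the same strand of chromosome 13, 152281 bases apart. Tifab was the only other gene of the table between them, and Slc25a48 lies beyond Cxcl14; both were named for their position. Tifab differed between knockouts and wild types by 0.22 (SE 0.17) in kidney and 0.07 (SE 0.26) in liver on the log2 scale. Slc25a48 differed by -0.44 (SE 0.15) and -0.32 (SE 0.17). None of these passed (adjusted p 0.999 in kidney and 1.0 in liver), and the groups of both genes overlapped in both tissues. The ratio of the Tifab liver means, knockout over wild type, was 1.05 with all libraries and 0.984 without mouse 24.

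Levels of different genes were compared as CPM per kilobase of exon. In wild-type kidney the order was Cx3cl1 (23.9 ± 2.9), Cxcl14 (19.2 ± 5.1), Cxcl12 (18.5 ± 0.6), Ackr3 (14.6 ± 0.8) and Cxcl16 (10.1 ± 0.9), each as mean ± SD with n = 5. With the length of the longest transcript in place of the exon union, Cxcl12 (26.9) stood above Cxcl14 (19.2) in wild-type kidney, and in wild-type liver Ackr4 (0.768) stood above Cxcr4 (0.685). The remaining kidney members averaged between 0.107 (Ackr4) and 1.49 (Cxcr4). The range of Cxcl14 overlapped those of Cx3cl1 and Cxcl12, and Cxcl12, Ackr3 and Cxcl16 were each separated from the next in order. In knockout kidney Cxcl14, at 8.65 ± 1.71 (SD, n = 5), held place 5 of the 10, with a range that overlapped only that of Cxcl16 above it. In wild-type liver Cxcl12 led at 46.4 ± 1.8 (SD, n = 4), followed by Cxcl1 at 31.9 ± 28.1 and Cxcl14 at 5.94 ± 6.04. In knockout liver Cxcl12 was at 38.8 ± 2.4 (SD, n = 5), Cxcl1 at 14.8 ± 20.6 and Cxcl14 at 14.6 ± 5.4. The range of Cxcl1 overlapped those of its neighbours in order in both liver groups. Cxcr4, Ackr4, Cx3cl1 and Ackr3 held the last places in liver, below 1 CPM per kilobase on average.

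**Figure D2:**
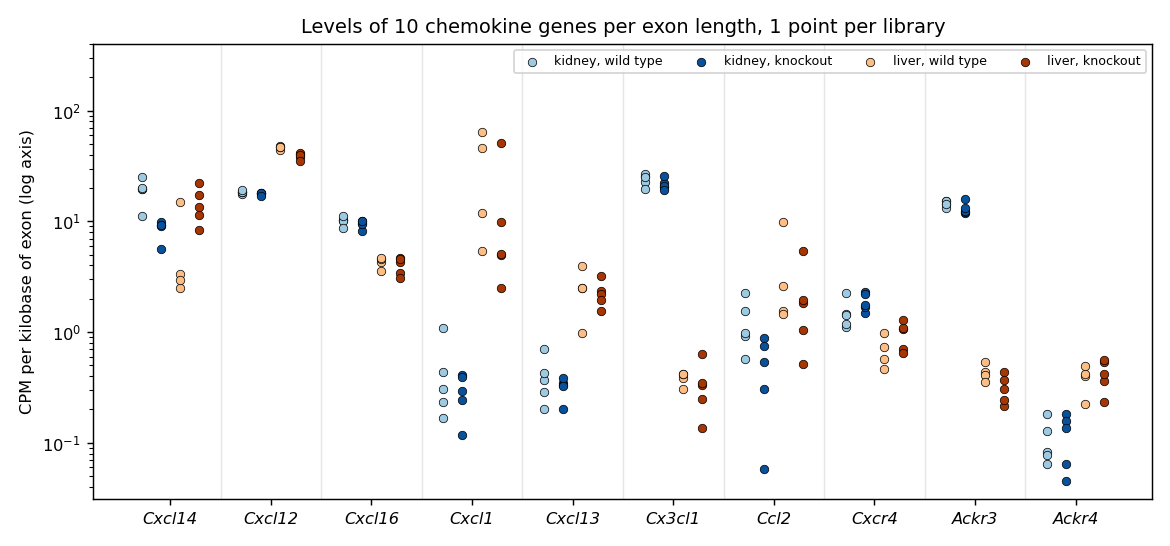
CPM per kilobase of exon (log axis) for the 10 members, 1 point per library, with wild-type and knockout libraries of kidney and liver in separate columns. Without overlap between tissues, Cx3cl1, Ackr3 and Cxcl16 are kidney-high, and Cxcl12, Cxcl1, Cxcl13 and Ackr4 are liver-high. Cxcl1 in liver spreads from 2.51 to 64.7 CPM per kilobase.

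Between the tissues, averaged over both genotypes, 9 of the 10 members passed the test, 4 higher in kidney and 5 higher in liver. Of all 18549 genes, 81.1% passed, 45.5% higher in kidney and 35.5% lower, so the members' share is near the background. Scaling by library totals moved the median of all genes from 0.17 to 1.07 on the log2 scale. It moved the calls from 8446 higher and 6592 lower to 13836 and 2662. In whole tissue, fewer cells of a type and less RNA per cell cannot be told apart.

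Among ligands, Cx3cl1 (fractalkine, a membrane-bound chemokine for Cx3cr1-bearing cells) was higher in kidney by 5.98 (SE 0.17) on the log2 scale (adjusted p = 2.29e-19). It ran from 75.7 to 105.4 CPM in kidney and from 0.537 to 2.50 CPM in liver. Cxcl16, a membrane-bound ligand of Cxcr6, was higher in kidney by 1.25 (SE 0.09, adjusted p = 4.62e-12), at 24.6 to 34.0 CPM against 9.31 to 14.2 CPM. Cxcl16 shares 552 exon bases with the opposite-strand gene Zmynd15, and whether counting used strand is not given in the sources used here. Zmynd15 averaged 12.1 to 12.2 CPM in the kidney groups and 9.40 to 9.70 CPM in the liver groups.

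Cxcl12, the stromal ligand of Cxcr4 and Ackr3, was higher in liver: its kidney against liver difference was -1.23 (SE 0.05, adjusted p = 3.38e-16). Kidneys held 137.2 to 157.5 CPM and livers 284.8 to 392.5 CPM. With library totals the Cxcl12 difference was -0.33 and still passed (adjusted p = 1.26e-05). Cxcl1, a neutrophil-attracting chemokine, was also higher in liver, by a difference of -5.93 (SE 0.73, adjusted p = 1.16e-06), with 0.219 to 2.05 CPM in kidney and 4.70 to 121.3 CPM in liver. Cxcl13, which attracts B cells through Cxcr5, differed by -2.71 (SE 0.25, adjusted p = 6.93e-10), from a low level of 0.231 to 0.803 CPM in kidney to 1.12 to 4.51 CPM in liver. Ccl2, which attracts monocytes through Ccr2, differed by -1.86 (SE 0.49, adjusted p = 0.00184). The tissue ranges of Ccl2 overlapped, and with library totals its difference of -0.96 no longer passed (adjusted p = 0.0669).

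Among receptors, Ackr3, the atypical receptor that takes up Cxcl12, was higher in kidney by 5.23 (SE 0.11, adjusted p = 6.72e-22), at 39.6 to 53.6 CPM against 0.716 to 1.80 CPM. Ackr3 and its ligand Cxcl12 were thus on opposite sides of the tissue comparison. Cxcr4, the signalling receptor of Cxcl12, was higher in kidney by 1.05 (SE 0.18, adjusted p = 1.3e-05), with overlapping ranges of 2.03 to 4.14 CPM and 0.837 to 2.30 CPM. Ackr4, which takes up ligands of Ccr7 and Ccr9, was higher in liver (-1.85, SE 0.26, adjusted p = 9.88e-07), at 0.241 to 0.978 CPM in kidney and 1.20 to 3.04 CPM in liver. Ackr4 lies within Acad11 on the opposite strand and shares 479 exon bases with it. Acad11 averaged 135.7 to 144.2 CPM in the kidney groups and 276.0 to 296.7 CPM in the liver groups, the same direction as Ackr4, and the part of its reads in the Ackr4 counts was not tested.

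**Figure D3:**
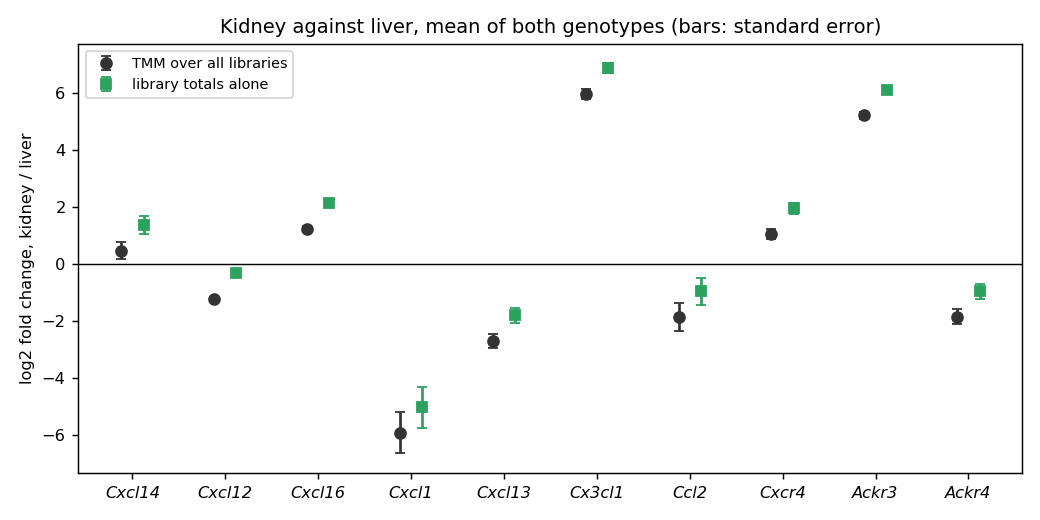
Log2 fold change of kidney over liver, averaged over both genotypes, for the 10 members with TMM scaling (circles) and with library totals alone (squares); bars give the standard error. The 2 scalings differ by a nearly constant shift, every member keeps its direction, and Cxcl14 moves from 0.48 to 1.38.

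Within each tissue, none of the 9 members other than Cxcl14 passed the test between knockouts and wild types, where 0.00579% of all genes passed in kidney and 0% in liver. The adjusted p of each was 0.999 in kidney and 1.0 in liver by edgeR's quasi-likelihood test. Over all 10 members the median log2 difference was -0.13 in kidney, 2 higher and 8 lower, and -0.15 in liver, 3 higher and 7 lower. These counts and medians include Cxcl14, lower in kidney and higher in liver, the directions by which it was chosen. The medians of all genes tested were 0.01 and 0.00, with 52.2% and 51.3% of genes higher.

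Cxcl12 in liver was the only one of these 9 genes whose groups did not overlap with all libraries in. Knockout livers 13, 14, 15, 16 and 18 were at 329.4, 336.0, 313.6, 321.9 and 284.8 CPM, and wild-type livers 19, 20, 22 and 24 were at 358.0, 392.5, 381.6 and 384.5 CPM. Every knockout lay below every wild type, a state found for 0.87% of all genes in liver. The means were 317.1 ± 19.9 CPM (SD, n = 5) and 379.2 ± 14.8 CPM (SD, n = 4), a log2 difference of -0.25 (SE 0.09, unadjusted p = 0.0135, adjusted p = 1.0 in edgeR). In kidney Cxcl12 was at 137.2 to 148.4 CPM in knockouts and 144.2 to 157.5 CPM in wild types, a difference of -0.05 (SE 0.07). Cxcl12 differed between tissues in the knockout effect by -0.20 (SE 0.10), which did not pass (adjusted p = 1.0). In liver the summed level of 6 fibroblast and pericyte markers was 207.3 to 263.2 CPM in knockouts and 246.4 to 311.3 CPM in wild types. That of 4 sinusoid endothelium markers was 188.3 to 200.8 CPM in knockouts and 168.5 to 210.8 CPM in wild types. Their part in the Cxcl12 difference was not tested.

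Cxcl1 and Ccl2 had the largest knockout differences of these 9 genes, with errors to match. In knockout livers 13, 14, 15, 16 and 18 Cxcl1 was at 96.3, 9.36, 9.45, 18.5 and 4.70 CPM. Wild-type livers 19, 20, 22 and 24 had 22.3, 10.0, 85.5 and 121.3 CPM. Knockout liver 13 lay among the high wild types, and the groups overlapped widely. The difference was -1.11 (SE 1.06) in liver and -0.60 (SE 0.47) in kidney. The liver value was -2.51 without mouse 13 and -0.50 without mouse 24. In kidney Cxcl1 rested on 10 to 74 counts a library, and its difference was 0.04 without mouse 24. The neutrophil markers summed to 17.4 CPM in wild-type liver 22 and 10.0 CPM in wild-type liver 24, against 4.67 to 7.35 CPM in the other livers. Knockout liver 13, with Cxcl1 at 96.3 CPM, was among these others at 7.35 CPM. Wild-type liver 24, highest in Cxcl1, had less of these markers than wild-type liver 22. The part of neutrophils in the Cxcl1 levels was not tested.

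Ccl2 was at 0.605, 1.02, 0.850, 0.349 and 0.0657 CPM in knockout kidneys 13, 14, 15, 16 and 18, and at 1.04, 0.655, 1.11, 1.75 and 2.55 CPM in wild-type kidneys 19, 20, 22, 23 and 24. Knockouts were mostly low and wild types mostly high, and the groups overlapped between 0.655 and 1.02 CPM. The difference was -1.30 (SE 0.50, unadjusted p = 0.0212, adjusted p = 0.999 in edgeR) on 3 to 92 counts a library. In liver Ccl2 was at 1.20, 2.10, 6.18, 0.589 and 2.20 CPM in knockouts and at 1.78, 1.64, 2.97 and 11.2 CPM in wild types. Its liver difference was -0.83 (SE 0.75) and changed direction to 0.20 without the library labelled wild-type 24.

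**Figure D4:**
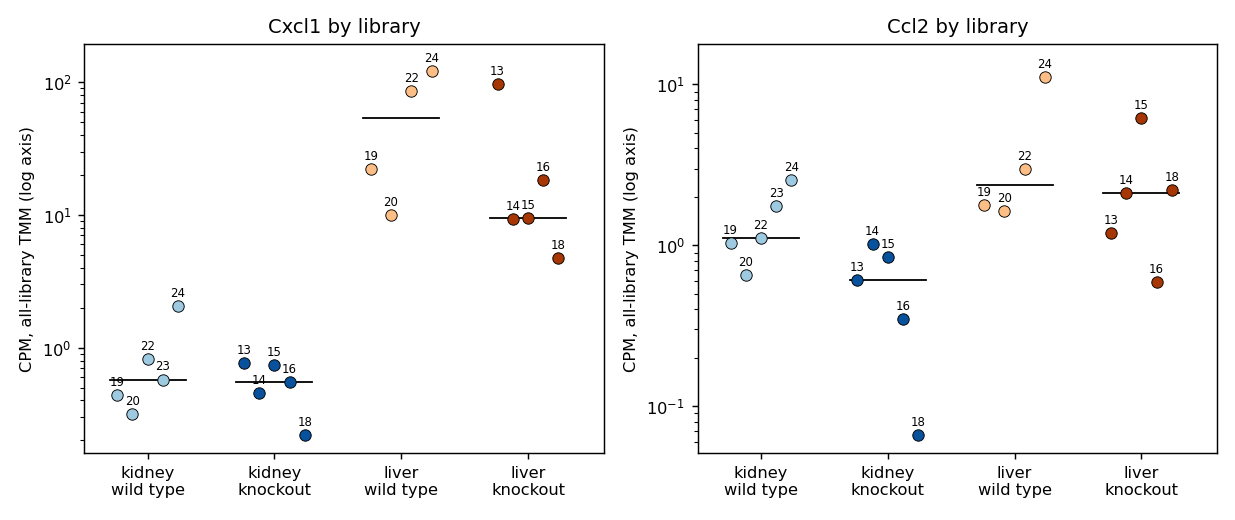
Levels of Cxcl1 (left) and Ccl2 (right) in CPM on log axes, 1 point per library with the mouse number above it and a line at the group median. Liver values of Cxcl1 reach from 4.70 to 121.3 CPM with knockout 13 beside the high wild types, and the liver labelled wild-type 24 holds the highest value of each gene.

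Of the 3 receptors, Cxcr4 alone had a positive difference larger than its standard error in both tissues. Knockout kidneys 13, 14, 15, 16 and 18 were at 2.70, 3.02, 4.14, 3.14 and 3.96 CPM, and wild-type kidneys 19, 20, 22, 23 and 24 were at 2.64, 2.58, 2.03, 2.13 and 4.08 CPM. Without the library labelled wild-type 24 every knockout kidney lay above every wild-type kidney, as for 0.689% of all genes; with it the groups overlapped. Knockout livers had 1.28, 1.93, 1.98, 1.18 and 2.30 CPM and wild-type livers 1.04, 1.31, 0.837 and 1.76 CPM, which overlap. The difference was 0.35 (SE 0.20) in kidney and 0.49 (SE 0.30) in liver. The B cell markers summed to 55.0 CPM in knockout kidney 15 and 33.97 CPM in knockout kidney 18, the knockouts highest in Cxcr4, against 10.4 to 21.7 CPM in the other knockout kidneys. In wild-type kidneys these markers summed to 13.3 to 25.3 CPM, lowest in the library labelled wild-type 24. Their part in the Cxcr4 difference was not tested.

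The remaining 5 members did not pass either. Cxcl16 differed by -0.09 (SE 0.09) in kidney and -0.09 (SE 0.15) in liver, and Cx3cl1 by -0.13 (SE 0.10) and -0.15 (SE 0.37). Ackr3 differed by -0.14 (SE 0.09) and -0.47 (SE 0.29), with livers at 0.716 to 1.45 CPM in knockouts and 1.17 to 1.80 CPM in wild types. Cxcl13 differed by -0.31 (SE 0.35) and -0.15 (SE 0.33), and Ackr4 by 0.14 (SE 0.39) and 0.14 (SE 0.31), both at low counts. Leaving out a single mouse turned the direction of Cxcl13 (0.0012 in kidney without mouse 20, 0.16 in liver without mouse 19). The same held for Ackr4 (-0.10 in kidney without mouse 13, -0.05 in liver without mouse 19) and for Cx3cl1 in liver (0.05 without mouse 13). The knockout effects of the tissues, set against each other, passed for none of the 9 (adjusted p = 1.0 for each in edgeR).

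**Figure D5:**
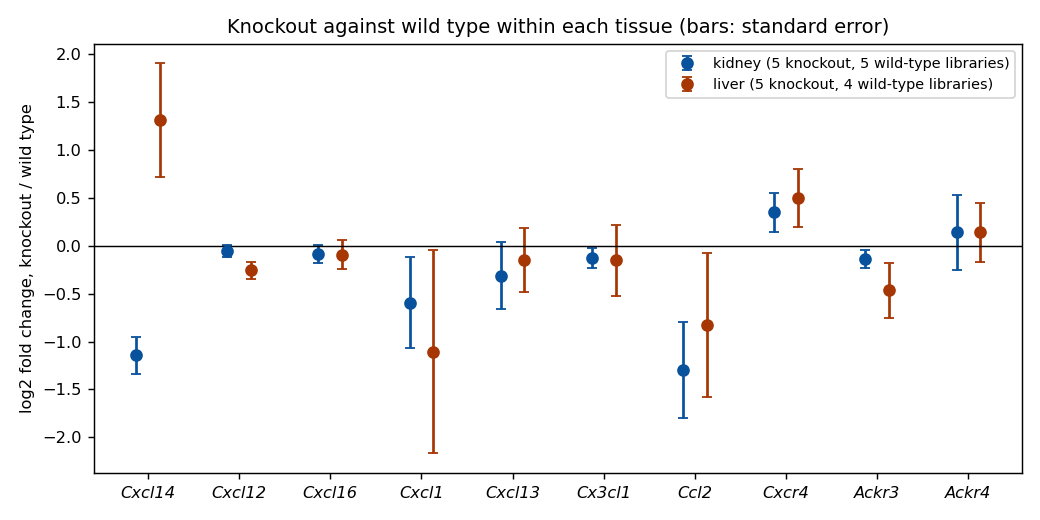
Log2 fold change of knockout over wild type within kidney (5 against 5 libraries) and within liver (5 against 4) for the 10 members; bars give the standard error. Cxcl14, which was chosen for this pattern, lies at -1.14 in kidney and 1.31 in liver. With all libraries in, every other member has the same sign in both tissues. Leaving out a single mouse turned the sign of Cxcl1, Cxcl13 and Ackr4 in kidney and of Cxcl13, Cx3cl1, Ccl2 and Ackr4 in liver.

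The spread within groups was compared between the tissues of the 9 mice with both libraries, taking libraries with 1 number as a pair, which the labels do not state in words. For each gene the log2 CPM was expressed as the deviation from its group mean, and r was set against all 2880 pairings within genotype (exact permutation test, two-sided, adjusted over 9 genes). For Cxcl1, mice high in liver were high in kidney: Spearman's rho was 0.93 (p = 0.00278, adjusted 0.025) and Pearson's r 0.80 (p = 0.0170, adjusted 0.0552), with the same sign in 8 of 9 mice. Without mice 20 and 24, farthest from the median in kidney, r was 0.73 over 7 mice.

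Cxcl12 had the same sign in 9 of 9 mice, with r 0.87 (p = 0.00729, adjusted 0.0552) and rho 0.80 (p = 0.0205, adjusted 0.0922) by the same exact test. Without mice 18 and 19 its r was 0.37, so the relation rests on them; without mouse 24 it was 0.98 (adjusted p = 0.0375, exact test). Cxcr4 had r 0.83 (p = 0.0184, adjusted 0.0552) and rho 0.78 (p = 0.0313, adjusted 0.0938) in the exact test, and r was 0.74 without mice 15 and 24. The other 6 genes had r from -0.34 (Ackr3) to 0.46 (Ccl2) with exact adjusted p of 0.542 or more. Cxcl14 had r -0.87 and rho -0.73, with opposite signs in 8 of 9 mice. This was not tested, since the gene was chosen for opposite tissue differences and mouse 24 carries the same pattern. Without mouse 24, r was -0.70. Without mice 13 and 24 it was -0.53, but on deviations from group means that include both. That value therefore does not show whether the inverse relation holds without them. Without mouse 24 the exact test had 720 pairings, and r was 0.80 for Cxcl1 (adjusted p = 0.188) and 0.74 for Cxcr4 (adjusted p = 0.242). By Pearson's r neither gene passed with mouse 24 included either. Spearman's rho, by which Cxcl1 passed, was not computed without mouse 24.

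Other genes of the pathway were followed in 4 lists of further CXC and XC ligands, CC ligands, receptors, and proteases and signalling partners. None passed between knockouts and wild types: 0 of 5, 12, 14 and 15 genes tested in kidney and 0 of 6, 6, 13 and 15 in liver. The list medians on the log2 scale were -0.08, 0.08, -0.06 and 0.03 in kidney and -0.38, 0.01, -0.16 and 0.03 in liver. Cxcl9, an interferon-induced ligand of Cxcr3, had the smallest p in liver. It was at 9.16 to 13.9 CPM in knockouts and 5.94 to 9.07 CPM in wild types, without overlap, as for 0.747% of all genes, and differed by 0.63 (SE 0.17, adjusted p = 0.725). Cxcl11, another interferon-induced ligand of Cxcr3, lay the other way in liver, at 0.734 to 3.63 CPM in knockouts and 2.69 to 4.48 CPM in wild types (-1.003, SE 0.359, adjusted p = 1.0). In kidney, Rgs2, a regulator of G-protein signalling, differed by 0.38 (SE 0.14) and Grk3, a receptor kinase, by 0.19 (SE 0.09). Ccl8 and Ccl3 differed by 0.59 (SE 0.28) and 0.68 (SE 0.35) in kidney at under 1 CPM. Ccr2, the receptor of Ccl2, differed by -0.26 (SE 0.16) in kidney, and Ccrl2 by -0.24 (SE 0.18). Cxcl10 was at -0.23 (SE 0.19) and Cxcl9 at 0.18 (SE 0.18) in kidney. In liver Ccl24 differed by -0.30 (SE 0.20), Ccl9 by 0.17 (SE 0.24; -0.09 without mouse 18), Ccrl2 by -0.39 (SE 0.22), and Cx3cr1, the receptor of Cx3cl1, by -0.43 (SE 0.24). Gnai3 and Rgs2 in liver differed by 0.14 (SE 0.08) and -0.22 (SE 0.16). Like Cxcl9, Gnai3 had no overlap in liver, at 117.2 to 128.2 CPM in knockouts and 108.1 to 112.6 CPM in wild types.

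Between tissues, 45.5% of all genes were higher in kidney and 35.5% higher in liver. Of 7 further CXC and XC ligands tested, 0 were higher in kidney and 4 higher in liver, among them Cxcl2 (-2.81, SE 0.59) and Cxcl11 (-2.27, SE 0.25). Of 14 CC ligands, 5 were higher in kidney and 6 in liver. Ccl9 had the widest distance towards liver, at 115.7 to 129.6 CPM in the liver group means and 1.70 to 2.22 CPM in the kidney group means (-5.97, SE 0.22, adjusted p = 3.33e-15). Ccl24 differed by -3.81 (SE 0.25), and Ccl28, an epithelial chemokine, by 4.39 (SE 0.29, adjusted p = 2.05e-12). Ccl12, a close relative of Ccl2, was at 0.0833 to 1.35 CPM in kidney and at 0 in all wild-type livers and at most 0.0404 CPM in knockout livers. Of 16 receptors, 5 were higher in each tissue: Cx3cr1 was higher in kidney (1.75, SE 0.14), as was its ligand Cx3cl1, and Ccr10, a receptor for Ccl28, was also higher there (1.96, SE 0.43). The atypical receptors Ackr1 (-4.37, SE 0.29) and Ackr2 (-2.65, SE 0.25) were higher in liver, as was Ackr4 and unlike Ackr3. Of 15 proteases and signalling partners, 9 were higher in kidney and 5 in liver. The beta-arrestins, which bind activated receptors, were on opposite sides, Arrb1 higher in kidney (1.89, SE 0.08) and Arrb2 higher in liver (-1.46, SE 0.08). Gnai1, an inhibitory G-protein subunit, was higher in kidney (3.70, SE 0.17), and Rgs1 was higher in liver (-2.06, SE 0.46).

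The genes whose pattern over the 19 libraries was most like that of Cxcl14 were ranked by Pearson's r of log2 CPM among 18549 genes. Centring on tissue means keeps the knockout differences by which Cxcl14 was chosen, so genes ranked this way share that pattern in part. After this centring they were Jph1 (r = 0.82), Gpr173 (0.74), Onecut1 (0.74), Wasf1 (0.73) and Gm38067 (0.73). With a prior count of 0.5 in place of 2, 2 of these 5 stayed among the leading 5. Jph1, a junction protein of muscle membranes, was at 1.33 to 2.35 CPM in knockout livers, 2.08 CPM in the liver labelled wild-type 24 and 0.920 to 1.17 CPM in the other wild-type livers. In kidney its groups overlapped, at 0.71 to 1.05 CPM in knockouts and 0.79 to 1.18 CPM in wild types. Onecut1, a transcription factor of hepatocytes and bile ducts, was at 0 in all kidneys, so its r rests on the livers. It was at 6.38 to 10.2 CPM in knockout livers, 17.7 CPM in the liver labelled wild-type 24 and 1.74 to 3.81 CPM in the others.

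After centring on the 4 group means the leading genes were Letm2 (r = 0.87), Fam243 (0.86), Gm853 (0.83), Syngr3 (0.82) and ENSMUSG00000107311 (0.82), for which no symbol was matched. Without mouse 24 these r were 0.66, 0.32, 0.05, 0.37 and 0.70. All are descriptions over 19 libraries that share tissue, genotype and animals.

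In liver the summed level of 5 skeletal muscle markers was 18.1, 1.48, 8.08, 5.89 and 10.7 CPM in knockout livers 13, 14, 15, 16 and 18, and 2.86, 2.72, 1.67 and 3.31 CPM in wild-type livers 19, 20, 22 and 24. It was highest in knockout liver 13, which was also highest in Cxcl14. It was lowest in knockout liver 14, where Cxcl14 was at 21.04 CPM, and low in the liver labelled wild-type 24, where Cxcl14 was at 27.4 CPM. None of these muscle markers was at 0 in all livers. In kidney the summed tubule markers were 7868 to 9333 CPM in knockouts and 8386 to 9961 CPM in wild types, and the skeletal muscle markers at most 3.01 CPM. The part of either list in the Cxcl14 levels was not tested.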

How the data were processed

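The authors deposited raw counts per gene, not normalized, for 26506 genes in 19 libraries of kidney and liver; each gene sums to 10 or more counts. Per the submitters' processing notes, the tools were Trim Galore, STAR, featureCounts and DESeq2 on build GRCm38; versions and the strand setting are not given in the sources used here. Symbols, positions and exon lengths came from the GENCODE mouse annotation (26417 identifiers matched, 89 not), and promoters from RefSeq.

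Groups followed the genotype and tissue labels. Each comparison used edgeR 4.0.16 (R 4.3.3) with TMM, filterByExpr (minimum count 10), the robust quasi-likelihood test, two-sided, and Benjamini-Hochberg adjustment over all genes tested, threshold 0.05. Kidney and liver were fitted apart; tissues, and the difference in knockout effect, were compared in 1 fit of the 4 groups. Levels are CPM with TMM over all libraries. Standard errors come from log2 fold change and F. The precision of low members is limited by their counts. The fits were tested on simulated data with known changes. In kidney these were 65 genes at 1.5-fold, 67 at 2-fold and 63 at 4-fold, with similar numbers in the other comparisons. With so many changed genes the adjustment is more lenient than where few genes are called. The shares recovered can therefore overstate the recovery in the real fits. False calls were 6 in kidney, 14 in liver and 7 for the difference in knockout effect. Of 1.5-fold changes, 46.2% were recovered in kidney, 23.9% in liver and 13.6% for the difference in knockout effect. Of 2-fold changes, 76.1%, 61.3% and 47.8% were recovered in the same order. A real change of such size can therefore go uncalled.

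The members, lists and tests were chosen with earlier results of these data known. Named genes were the members, H2afy, the 2 genes of each list with the smallest p in each tissue or, between tissues, the 2 largest changes each way, and the 5 genes most like Cxcl14; Tifab, Slc25a48, Acad11 and Zmynd15 were named for their position. Alternatives were DESeq2 1.42.0, other scalings, no filter, all libraries fitted together, a block for the mouse number, other lengths, another prior count, and leaving out each mouse. Leaving out mouse 24 in counts of non-overlapping groups and in correlations, and library totals for the Cxcl14 levels, were added after seeing the data. The listed genes Cxcl3, Cxcl15, Ccl1, Ccl19, Ccl21a and Ccl26 were not analysed here.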

Additional observations from a re-analysis of the deposited data

Results flagged for a closer look

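Of 40 groups of 4 or 5 libraries, 6 held a library whose gap to its nearest neighbour was large against the range of its group. About 1 in 20 holds by chance only for independent groups with a normal spread. These groups share mice and the gaps were taken in CPM, so the count was not tested against that rate. The gaps of Cxcl1 in wild-type kidney and Ccl2 in knockout liver barely passed the cutoff of 0.71 of the range (0.713 and 0.711). Cxcl14 was at 10.3 CPM in knockout kidney 13, where the next knockout was at 16.7 CPM. Cxcl14 was at 27.4 CPM in the liver labelled wild-type 24, where the next wild type was at 6.10 CPM. Cxcl1 was at 2.05 CPM in the kidney labelled wild-type 24, against 0.816 CPM in the next, and at 96.3 CPM in knockout liver 13, against 18.5 CPM in the next. Ccl2 was at 6.18 CPM in knockout liver 15, against 2.20 CPM in the next, and at 11.2 CPM in the liver labelled wild-type 24, against 2.97 CPM in the next. Mouse 24 gave 3 of the 6 and mouse 13 gave 2.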

How the results depend on the processing

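The count of genes called between knockouts and wild types moved with the processing. In kidney it was 1, and 3 with all libraries in 1 fit, 15 with DESeq2, 4 without a filter and 1 to 10 leaving out each mouse in turn, 10 without mouse 16 and 7 without mouse 24. In liver it was 0, and 21, 42, 3 and 0 to 7 in the same order, 7 without mouse 16 and 5 without mouse 24. For the difference between tissues it was 0, and 8 with DESeq2 and 0 to 3 leaving out a mouse, 3 without mouse 16. The cause was not tested. None of the 9 members tested was called in any of these fits; Cxcl14 was not tested there. The number of members other than Cxcl14 whose kidney groups do not overlap went from 0 to 1 (Cxcr4, knockouts higher) without mouse 24. Among all genes the share in that state also rose, from 0.261% to 0.689%.

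Leaving out each mouse reversed 8 uncalled differences. In kidney, Cxcl1 ranged from -0.81 to 0.038, Cxcl13 from -0.48 to 0.0012 and Ackr4 from -0.10 to 0.40. In liver, Cxcl1 kept its direction from -2.51 to -0.50, Cxcl13 ranged from -0.41 to 0.16, Cx3cl1 from -0.50 to 0.050, Ccl2 from -1.51 to 0.20, Ackr4 from -0.055 to 0.30 and Ccl9 from -0.091 to 0.29. The kidney and liver correlation of Cx3cl1 went from 0.0084 to -0.026 without mouse 24. Between tissues, 8 of the 9 called members stayed called under every alternative, and Ccl2 was lost with library totals. The length of the longest transcript in place of the exon union moved 15 of 40 levels per kilobase by more than 1 SD.

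Libraries with 1 mouse number did not pair clearly: the correlation of their deviations was 0.05 to 0.31, above 0.1 in 7 of 9 mice, and 4 of 9 libraries matched best with their own number. With the mouse number as a block, 15061 genes were called between tissues, against 15038, and 0 for the difference in knockout effect, and no member's call changed. Low counts limit Ackr4, Cxcl13 and Ccl2 in both tissues, Cxcl1 in kidney, and Ackr3, Cx3cl1 and Cxcr4 in liver.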
